A study of Mus musculus with 4 samples.

Results

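Replicate 2 was set against replicate 1 in mouse embryonic fibroblasts of both genotypes, which shows the variation between cultures that podoplanin-deficient and wild-type cells had in common. All 4 arrays of the study were used, namely Pdpn KO replicate 2 and WT replicate 2, against Pdpn KO replicate 1 and WT replicate 1. Genes were all those with a probe set of a single gene symbol outside chromosomes X and Y, with the brightest probe set kept for each symbol, which gave 19007 of 19751 genes. Pdpn encodes podoplanin, a membrane glycoprotein of fibroblasts and lymphatic endothelium that binds the platelet receptor CLEC-2. Per the labels, all cultures came from C57BL6/J embryos taken between E9.5 and E13.5, received no treatment, and were grown for 7 to 10 days in aMEM with 10% fetal calf serum. Endothelial and blood cells were then removed with antibodies against CD31 and CD45. The labels do not tell the embryo age behind each culture, the number of embryos or litters, or what arrays with the same replicate number share. The replicate number and any difference in litter, stage, culture or array run therefore cannot be told apart. The labels call the arrays biological replicates; p-values measure only the spread between these 4 arrays.

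Embryonic fibroblast cultures are mixtures of mesenchymal cells from many regions of the body. Such cells secrete fibrillar collagens, proteoglycans and matricellular proteins, keep the Hox code of the region they came from, and can carry precursors of cartilage, bone and tendon. Their transcripts are known to follow serum, cell density and the supply of amino acids, the last through the transcription factor ATF4.

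The values are RMA intensities, read here as log2 with no pseudocount, and every difference is replicate 2 minus replicate 1. Arrays with the same number were more alike than arrays of the same genotype. The Pearson correlation across genes was 0.9965 between the replicate 2 arrays of the 2 genotypes and 0.9961 between their replicate 1 arrays, against 0.9934 within Pdpn KO and 0.9943 within WT. Xist, the RNA that silences an X chromosome, had an intensity of 1831 in Pdpn KO replicate 2 and 57.4 in WT replicate 2, against 48.9 in Pdpn KO replicate 1 and 48.6 in WT replicate 1. The Y-linked Eif2s3y read 35.1 in Pdpn KO replicate 2 and 1474 in WT replicate 2, against 1673 in Pdpn KO replicate 1 and 1534 in WT replicate 1. Pdpn KO replicate 2 thus had a female pattern and the other 3 arrays a male one, although all 4 are labelled female. The Pdpn KO pair mixes these patterns and the WT pair does not, so list medians of opposite sign in the pairs are given for each pair, and the plot of list medians gives every list in the WT pair alone. Pdpn itself read 201 in Pdpn KO replicate 2 and 3106 in WT replicate 2, against 179 in Pdpn KO replicate 1 and 4486 in WT replicate 1, as the genotype labels say.

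**Figure D1:**
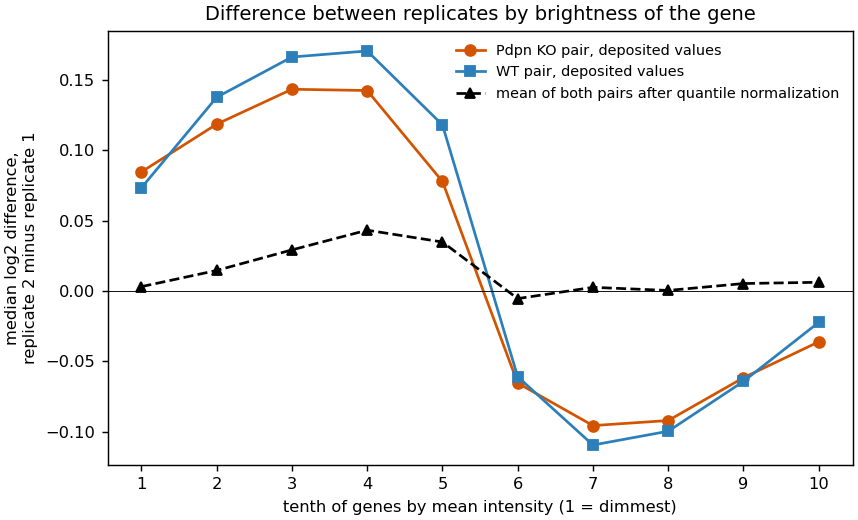
Median difference in log2 intensity, replicate 2 minus replicate 1, over 10 bins of equal size, from dim to bright genes by mean intensity, for the Pdpn KO pair, the WT pair and, after quantile normalization, the mean of both pairs. The dimmer 5 bins had medians above 0 and the brighter 5 below 0 in both pairs, with a span of 0.16 to -0.10 for the mean of both pairs.

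Brightness moved with the replicate number, as the plot of medians by brightness bin shows. The median difference over both pairs was 0.16 in the third and the fourth of 10 bins of genes, ordered by mean intensity, and -0.10 in the seventh and the eighth. Quantile normalization of the 4 arrays brought the median of each bin to between -0.01 and 0.04. Medians of lists of dim genes are therefore given after quantile normalization too, and the part of brightness in any result was not tested. Over all genes the median difference was 0.02, with 0.03 in the Pdpn KO pair and 0.02 in the WT pair.

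In limma with genotype as covariate, 141 genes were higher in replicate 2 (0.742% of the genes tested) and 296 were lower (1.56%) at an adjusted p under 0.05. Unadjusted p under 0.05 was reached by 3303 higher and 2475 lower genes. The genes called higher differed by 1.34-fold to 3.68-fold, and those called lower by 1.34-fold to 3.66-fold. Both replicate 2 intensities lay above both replicate 1 values for 136 of the 141, and below them for 291 of the 296. Over all genes tested the shares were 34.1% above and 25.4% below. The calls were made on these same arrays, so the separation of called genes is a description and no further evidence. With 1 array left out, the genotype covariate has to be dropped too, since no residual degree of freedom would remain. Each such fit sets a single array against the mean of both genotypes. Genotype differences therefore enter its values, including the list medians given below with an array left out. Without Pdpn KO replicate 2, the only array whose sex pattern matches its label, every call in limma was lost. Leaving out any other array also ended most calls, with 29 higher and 37 lower calls without Pdpn KO replicate 1, 16 higher and 20 lower without WT replicate 2, and 6 higher and 24 lower without WT replicate 1; dropping the covariate alone left 4 higher and 8 lower. An exact permutation of the replicate numbers within genotype has 4 arrangements and cannot go below p = 0.5, so the calls lean on the spread that limma shares across genes.

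A second reading used no test and asked for a difference of at least 0.25 on the log2 scale in the same direction in both pairs. It was met upward by 961 genes (5.06%) and downward by 977 genes (5.14%). These shares, and the 0.742% and 1.56% called higher and lower in limma, are the background for the list counts below. A list with no call lies near the background of limma calls, but not always near that of the second reading. For the posterior Hox genes, with 0 called, 16.7% were at least 0.25 higher in both pairs. The 2 pairs share no array. Across genes, the differences in the Pdpn KO pair and in the WT pair correlated with r = 0.598 and rho = 0.602 over 19007 genes, which are not independent replicates and share one normalization. After quantile normalization r was 0.532.

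**Figure D2:**
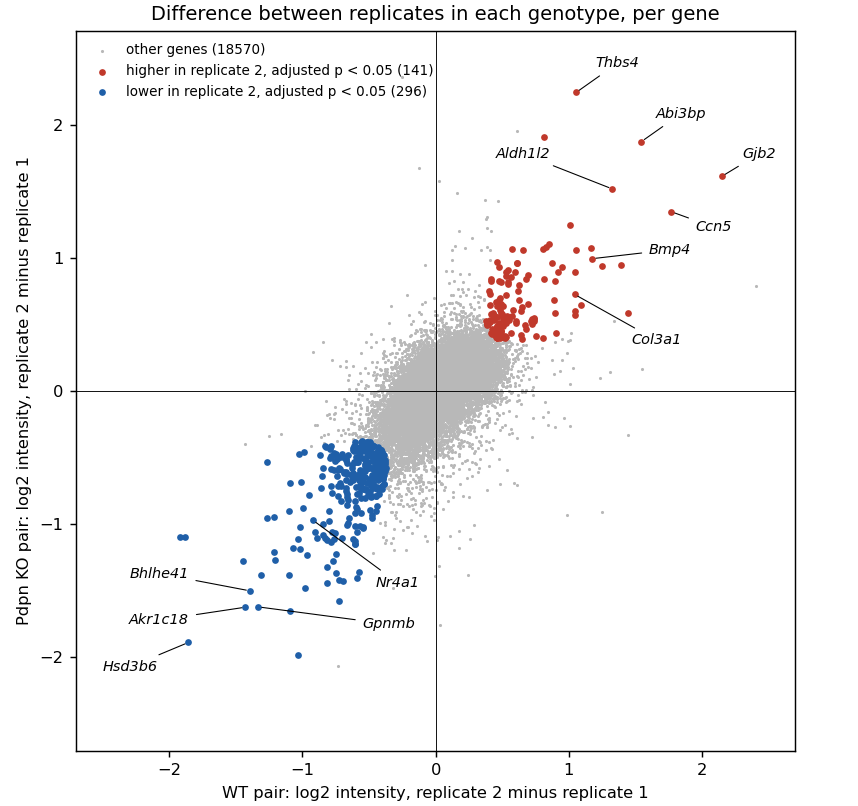
Difference in log2 intensity, replicate 2 minus replicate 1, in the WT pair (horizontal) and in the Pdpn KO pair (vertical), with 1 point per gene. The 141 genes called higher lie in the upper right and the 296 called lower in the lower left, with Gjb2 and Abi3bp far out on one side and Hsd3b6 on the other.

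The largest difference among the genes called higher was that of Gjb2, which encodes the gap junction protein connexin 26. Its intensity was 2857 in Pdpn KO replicate 2 and 1072 in WT replicate 2, against 935 in Pdpn KO replicate 1 and 242 in WT replicate 1. This is 1.88 ± 0.13 higher on the log2 scale (SE, n = 2 arrays a side, limma adjusted p = 0.00442), or 3.68-fold. Abi3bp, a matrix-associated protein of fibroblasts, read 902 in Pdpn KO replicate 2 and 347 in WT replicate 2, against 246 in Pdpn KO replicate 1 and 119 in WT replicate 1. The difference was 1.71 ± 0.10 (SE, limma adjusted p = 0.00331). Both genes were higher in Pdpn KO than in WT within each replicate number, and the replicate difference stood on top of that.

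Bmp4, a growth factor of the BMP family with roles in mesoderm and limb patterning, showed the same layout. Its intensity was 2807 in Pdpn KO replicate 2 and 1366 in WT replicate 2, against 1410 in Pdpn KO replicate 1 and 605 in WT replicate 1. It rose by 1.08 ± 0.09 (SE, limma adjusted p = 0.00598), with the WT replicate 2 value just below that of Pdpn KO replicate 1. Epha3, a receptor for membrane-bound ephrins, instead had nearly equal values in both genotypes. It read 385 in Pdpn KO replicate 2 and 372 in WT replicate 2, against 185 in Pdpn KO replicate 1 and 179 in WT replicate 1, a difference of 1.06 in each pair. Aldh1a3, which makes retinoic acid from retinal, read 697 in Pdpn KO replicate 2 and 604 in WT replicate 2, against 294 in Pdpn KO replicate 1 and 299 in WT replicate 1. Actg2, the smooth muscle gamma actin, read 5452 in Pdpn KO replicate 2 and 5298 in WT replicate 2, against 2855 in Pdpn KO replicate 1 and 2748 in WT replicate 1. For these 3 genes the genotypes differed little and the replicate numbers did not overlap. The remaining genes of the 15 with the smallest p in this direction included Lrrc17, Kif26b and the long pentraxin Ptx3, which differed by 0.97, 1.09 and 0.86 with limma adjusted p of 0.00741, 0.00802 and 0.00901.

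**Figure D3:**
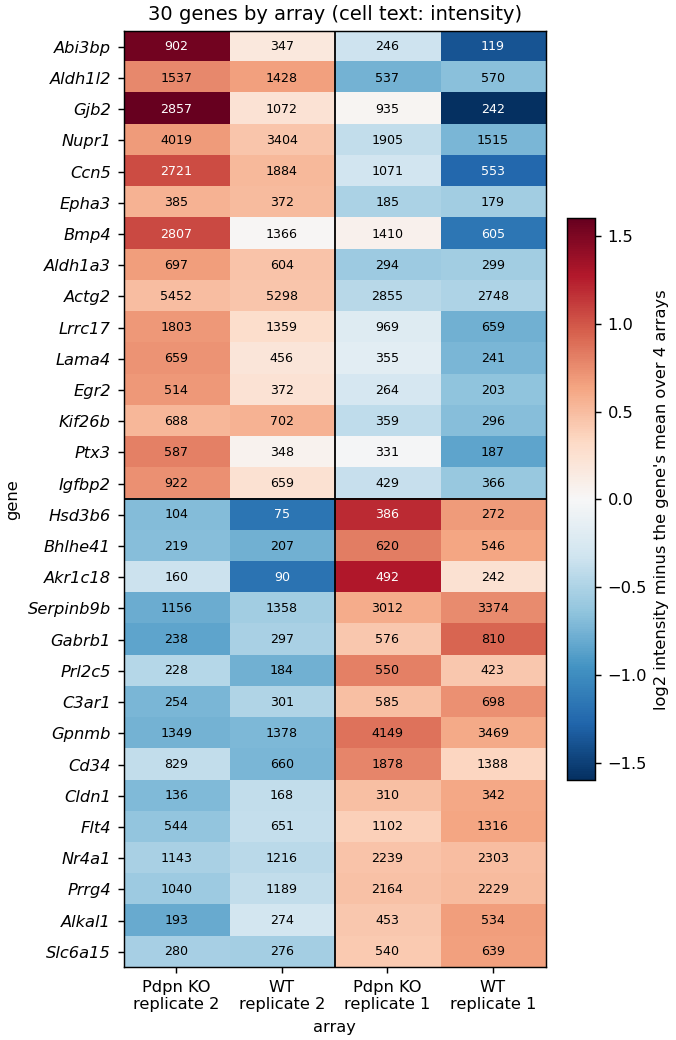
Log2 intensity of 30 genes relative to each gene's mean over the 4 arrays, with the intensity written in each cell and the replicate 2 arrays left of the replicate 1 arrays. The upper 15 genes are the ones with the smallest p among those higher in replicate 2 and the lower 15 among those lower; Hsd3b6 had 104 and 75.1 in the replicate 2 arrays, against 386 and 272 in the replicate 1 arrays.

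Among the genes lower in replicate 2 were enzymes of steroid hormones. Hsd3b6, a 3-beta-hydroxysteroid dehydrogenase, read 104 in Pdpn KO replicate 2 and 75.1 in WT replicate 2, against 386 in Pdpn KO replicate 1 and 272 in WT replicate 1. It fell by 1.87 on the log2 scale with an SE of 0.08 (limma adjusted p = 0.00183), the smallest p of all genes tested. Akr1c18, which inactivates progesterone, read 160 in Pdpn KO replicate 2 and 89.7 in WT replicate 2, against 492 in Pdpn KO replicate 1 and 242 in WT replicate 1. Bhlhe41, a repressor tied to the circadian clock, read 219 in Pdpn KO replicate 2 and 207 in WT replicate 2, against 620 in Pdpn KO replicate 1 and 546 in WT replicate 1. These 3 genes had limma adjusted p-values of at most 0.00331, and their replicate numbers did not overlap.

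Gpnmb, a glycoprotein of lysosomes and phagosomes, read 1349 in Pdpn KO replicate 2 and 1378 in WT replicate 2, against 4149 in Pdpn KO replicate 1 and 3469 in WT replicate 1, and fell by 1.48 on the log2 scale. C3ar1, the receptor of the complement fragment C3a, read 254 in Pdpn KO replicate 2 and 301 in WT replicate 2, against 585 in Pdpn KO replicate 1 and 698 in WT replicate 1. Serpinb9b, a serine protease inhibitor, read 1156 in Pdpn KO replicate 2 and 1358 in WT replicate 2, against 3012 in Pdpn KO replicate 1 and 3375 in WT replicate 1. The replicate 1 values were more than 2 times the replicate 2 values in both genotypes for these 3 genes. Cd34, a sialomucin of progenitors, vessels and connective tissue cells, and Cldn1, a tight junction protein, fell by 1.13 and 1.10. Prl2c5, of the prolactin family that the placenta expresses, fell by 1.24, and the signal of its probe set can come from near-identical copies. The others of the 15 were Gabrb1, Flt4, Nr4a1, Prrg4, Alkal1 and Slc6a15, with differences of -0.95 to -1.36. The 30 genes of both directions were picked for the smallest p, and the other fits reuse the same arrays. Their direction was thus nearly fixed by that choice. With each gene's own variance and no prior, none of the 30 was called. Of the 30 genes, all kept their direction in every other fit made, and none was called without Pdpn KO replicate 2.

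The collagens were the list with the largest share of calls among the lists of matrix genes. Of 18 fibrillar and fibril-associated collagen genes, all measured, 7 rose and 0 fell, and 15 were at least 0.25 higher in both pairs. The 7 and the 15 are 38.9% and 83.3% of the list, against 0.742% and 5.06% of all genes. The median difference of the collagens was 0.40, with 0.38 in the Pdpn KO pair and 0.42 in the WT pair, against 0.02 over all genes, and 0.46 after quantile normalization. Col1a1, the main chain of type I collagen, read 8334 in Pdpn KO replicate 2 and 8938 in WT replicate 2, against 5799 in Pdpn KO replicate 1 and 5895 in WT replicate 1. Its difference was 0.56 ± 0.08 (SE, limma adjusted p = 0.0284). Its partner chain Col1a2 read 5372 in Pdpn KO replicate 2 and 5517 in WT replicate 2, against 3780 in Pdpn KO replicate 1 and 3970 in WT replicate 1. For both chains of type I collagen the genotypes were close and the replicate numbers were apart.

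Col3a1, the chain of type III collagen, read 1538 in Pdpn KO replicate 2 and 1491 in WT replicate 2, against 931 in Pdpn KO replicate 1 and 724 in WT replicate 1, a difference of 0.88 ± 0.10 (SE, limma adjusted p = 0.0166). The type VI chains Col6a1 and Col6a2, which form beaded filaments around cells, rose by 0.67 and 0.81. Col18a1 and Col5a3 rose by 0.54 and 0.62. Col27a1, Col14a1, Col5a1 and Col6a3 differed by 0.37 to 0.42 in the mean of both pairs and missed the threshold, with limma adjusted p from 0.0502 to 0.0588. Col12a1, Col8a1 and Col16a1 differed by 0.06 to 0.09. Of 20 measured genes for enzymes and chaperones that hydroxylate, fold and crosslink collagen, 0 passed in either direction and 0 reached 0.25 in both pairs, and their median was 0.08, with -0.02 in the Pdpn KO pair and 0.12 in the WT pair.

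**Figure D4:**
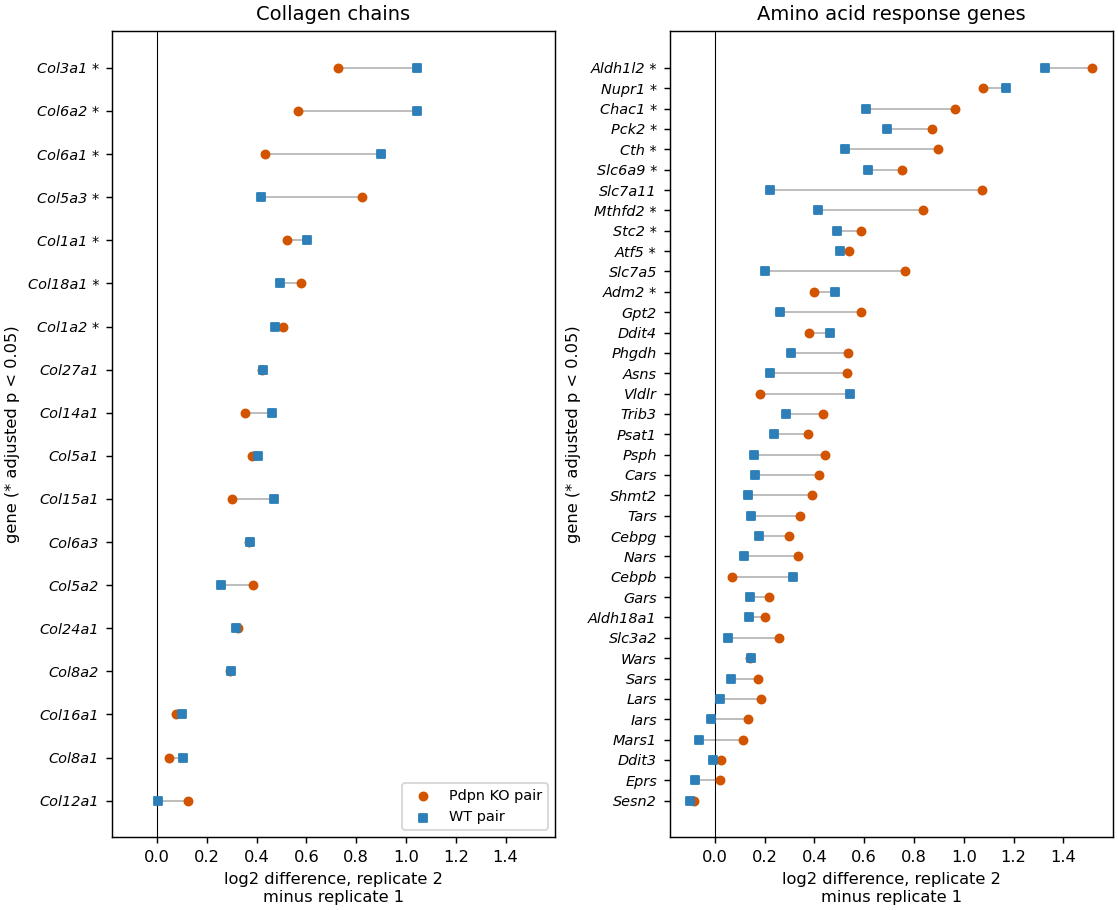
Difference in log2 intensity, replicate 2 minus replicate 1, in the Pdpn KO pair (circles) and the WT pair (squares) for 18 collagen genes and 37 amino acid response genes; asterisks mark the 7 and 10 genes past an adjusted p of 0.05. Nearly all points lie right of 0, and Col3a1 and Aldh1l2 head the columns.

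Other matrix groups held single genes with large differences. Of 21 fibronectin and matricellular genes, 3 rose and 0 fell, 7 were at least 0.25 higher in both pairs, and the median was 0.17 (0.10 in the Pdpn KO pair, 0.28 in the WT pair), with 0.09 when WT replicate 1 was left out and 0.26 when Pdpn KO replicate 1 was. The 3 and the 7 are 14.3% and 33.3% of the list, against 0.742% and 5.06% of all genes. Ccn5, a CCN family protein without the carboxyl-terminal domain of its relatives, read 2721 in Pdpn KO replicate 2 and 1884 in WT replicate 2, against 1071 in Pdpn KO replicate 1 and 553 in WT replicate 1. Its difference was 1.56 ± 0.11 (SE, limma adjusted p = 0.00489). Thbs4, a thrombospondin of tendon, read 835 in Pdpn KO replicate 2 and 323 in WT replicate 2, against 177 in Pdpn KO replicate 1 and 156 in WT replicate 1, with 2.24 in the Pdpn KO pair and 1.05 in the WT pair. Ccn4, a Wnt-induced relative, rose by 0.71. Smoc2, which binds calcium in the matrix, differed by 0.73 and missed the threshold (limma adjusted p = 0.059). The fibronectin gene Fn1 differed by -0.12 (limma adjusted p = 0.327).

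Of 19 small leucine-rich and hyaluronan-binding proteoglycan genes, Lum rose and Vcan fell, and 6 were at least 0.25 higher and 1 lower in both pairs. The 6 and the 1 are 31.6% and 5.26% of the list, against 5.06% and 5.14% of all genes. Lum, the keratan sulphate proteoglycan lumican, read 122 in Pdpn KO replicate 2 and 69.4 in WT replicate 2, against 69.1 in Pdpn KO replicate 1 and 47.6 in WT replicate 1. Vcan, the large proteoglycan versican, read 1973 in Pdpn KO replicate 2 and 1990 in WT replicate 2, against 2677 in Pdpn KO replicate 1 and 2956 in WT replicate 1. Fmod and Aspn, collagen-binding proteoglycans of tendon and cartilage, differed by 0.79 and 0.52 in the Pdpn KO pair and by 2.40 and 1.34 in the WT pair, and neither passed (limma adjusted p = 0.0552 and 0.0523). The median of the list was 0.19, with 0.15 after quantile normalization. With no genotype covariate, it was 0.38 without Pdpn KO replicate 1 and 0.06 without WT replicate 1.

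Basement membrane genes were split. Lama4, the laminin alpha 4 chain of vessels and muscle, read 659 in Pdpn KO replicate 2 and 456 in WT replicate 2, against 355 in Pdpn KO replicate 1 and 241 in WT replicate 1, a difference of 0.91 ± 0.08 (SE, limma adjusted p = 0.00741). It was the 1 of 18 that passed. Hspg2, Lama2 and Lamb1 were each at least 0.25 lower in both pairs, with mean differences of -0.46, -0.41 and -0.41 and limma adjusted p of 0.0531 to 0.059, while Nid2 was higher by 0.48 without passing (limma adjusted p = 0.073). The list median was 0.06. Of 15 elastic fibre genes, the microfibril glycoprotein Mfap4 rose by 0.76 and 0 fell, with a list median of -0.04 in the Pdpn KO pair and 0.12 in the WT pair. Of 25 matrix proteases and inhibitors, Plat, the tissue plasminogen activator, and the aggrecanase Adamts4 rose by 0.82 and 0.46, and the list median was -0.09 in the Pdpn KO pair and 0.04 in the WT pair.

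Cartilage, tendon and bone genes held 6 genes that rose and 1 that fell. Of 23 cartilage genes, 2 rose, 0 fell, 8 were at least 0.25 higher and 1 at least 0.25 lower in both pairs, with a median of 0.21 (0.22 in the Pdpn KO pair, 0.29 in the WT pair) and 0.23 after quantile normalization. The 8 and the 1 are 34.8% and 4.35% of the list, against 5.06% and 5.14% of all genes. The share that was lower thus lies near the background. Acan, the core protein of the cartilage proteoglycan aggrecan, read 337 in Pdpn KO replicate 2 and 213 in WT replicate 2, against 162 in Pdpn KO replicate 1 and 135 in WT replicate 1, a difference of 0.86 ± 0.11 (SE, limma adjusted p = 0.0226). Col9a2 rose by 0.46. Col10a1, the collagen of hypertrophic cartilage, differed by 1.42 in the Pdpn KO pair and 0.47 in the WT pair and did not pass (limma adjusted p = 0.059). Col2a1, the defining collagen of cartilage, differed by -0.10 in the Pdpn KO pair and 0.42 in the WT pair.

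Of 14 tendon and joint genes, Egr2, Thbs4 and Erg rose and 0 fell, and the median was 0.19, with 0.16 after quantile normalization. Each of these calls is also counted in another list: Egr2 in immediate-early genes, Thbs4 in matricellular genes and Erg in endothelial markers. They are not separate evidence for tendon. Egr2, a transcription factor that acts in tendon and nerve, read 514 in Pdpn KO replicate 2 and 372 in WT replicate 2, against 264 in Pdpn KO replicate 1 and 203 in WT replicate 1. Of 15 bone genes, Pth1r, the receptor of parathyroid hormone, rose by 0.45 and the homeobox gene Msx2 fell by 0.52, with a list median of 0.22 and 0.10 after quantile normalization. Of 30 skeletal muscle genes, Acta1 fell by 0.51 and 0 rose, and the median of 0.14 became 0.03 after quantile normalization. Of 19 smooth muscle and SRF target genes, only Actg2 passed, and the median was 0.06. Of 18 fat cell genes 0 passed, with a median of 0.06 and 0.04 after quantile normalization.

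The labelled cell type was checked against markers. Of 16 fibroblast markers, Col3a1, Lum, Pdgfrb, Col1a1 and Col1a2 rose and 0 fell. The median was 0.36 (0.34 in the Pdpn KO pair, 0.33 in the WT pair). With no genotype covariate, it was 0.16 without Pdpn KO replicate 2 and 0.19 without WT replicate 1. The summed intensity of the markers was 62339 in Pdpn KO replicate 2 and 62648 in WT replicate 2, against 56575 in Pdpn KO replicate 1 and 54556 in WT replicate 1. These markers include collagens of the list above and are not independent of it. In bulk RNA, more cells of a type and more RNA per cell cannot be told apart. Pdgfrb, the receptor of platelet-derived growth factor B on mesenchymal cells, read 3883 in Pdpn KO replicate 2 and 3875 in WT replicate 2, against 2698 in Pdpn KO replicate 1 and 2327 in WT replicate 1.

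Markers of the depleted cells were mostly dim, with a median intensity of 171.5 for the endothelial and 138.1 for the blood cell markers. Flt4 was brighter, and the endothelial calls were split. Of 19 endothelial markers, Erg and Plvap rose and Flt4 and Kdr fell, and the summed intensity was 3977 in Pdpn KO replicate 2 and 4220 in WT replicate 2, against 4272 in Pdpn KO replicate 1 and 4850 in WT replicate 1. The bright Flt4 is part of these sums. By mean difference over both pairs, 14 of the 19 markers were above 0 and 5 below. Flt4, the receptor of VEGF-C, read 544 in Pdpn KO replicate 2 and 651 in WT replicate 2, against 1102 in Pdpn KO replicate 1 and 1316 in WT replicate 1, a difference of -1.02 in each pair. Pecam1, which encodes the CD31 used for depletion, read 141 in Pdpn KO replicate 2 and 154 in WT replicate 2, against 124 in Pdpn KO replicate 1 and 121 in WT replicate 1. RMA gives no value of 0 and no detection call, so no marker can be called absent. Of 17 markers of blood cells, Cd68 fell by 0.72 and 0 rose, with summed intensities of 2622 in Pdpn KO replicate 2 and 2619 in WT replicate 2, against 2748 in Pdpn KO replicate 1 and 2689 in WT replicate 1.

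Of 17 epithelial markers, Cldn3 rose by 0.44 and Krt19 fell by 0.53; their summed intensity was 4890 in Pdpn KO replicate 2 and 4319 in WT replicate 2, against 4997 in Pdpn KO replicate 1 and 4341 in WT replicate 1. Of 12 mesothelial markers, Krt19 and Upk1b fell and 0 rose, with sums of 4726 in Pdpn KO replicate 2 and 3854 in WT replicate 2, against 4960 in Pdpn KO replicate 1 and 4278 in WT replicate 1. None of 15 nerve and Schwann cell markers or of 10 pericyte markers passed. The nerve sum was 6402 in Pdpn KO replicate 2 and 5771 in WT replicate 2, against 7545 in Pdpn KO replicate 1 and 5723 in WT replicate 1, and the pericyte sum was 7362 in Pdpn KO replicate 2 and 8511 in WT replicate 2, against 9347 in Pdpn KO replicate 1 and 9177 in WT replicate 1. The medians of the endothelial, blood, epithelial, nerve and mesothelial markers lay between 0.10 and 0.17 and came to between 0.01 and 0.07 after quantile normalization; that of the pericyte markers was -0.25 in the Pdpn KO pair and 0.10 in the WT pair, so the pairs ran opposite ways, and -0.10 for both pairs after quantile normalization. The part of other cell types in the results was not tested.

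Calls among genes of the amino acid response were all upward. In the list of 29 unfolded protein and amino acid stress genes, Pck2, Chac1 and Mthfd2 rose and 0 fell, with a list median of 0.15. All 3 belong to its amino acid arm, so a longer list of 38 genes known to answer ATF4 was put together after the values had been seen. Of its 37 measured genes 10 rose, 0 fell and 14 were at least 0.25 higher in both pairs, with a median of 0.30 (0.39 in the Pdpn KO pair, 0.22 in the WT pair) and 0.39 after quantile normalization. The 10 and the 14 are 27.0% and 37.8% of those measured, against 0.742% and 5.06% of all genes. This list was chosen for how some of its members moved, and its count is a description.

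Aldh1l2, a mitochondrial enzyme of folate metabolism, read 1537 in Pdpn KO replicate 2 and 1428 in WT replicate 2, against 537 in Pdpn KO replicate 1 and 570 in WT replicate 1. It rose by 1.42 ± 0.09 (SE, limma adjusted p = 0.00331), or 2.68-fold. Nupr1, a stress-induced nuclear protein, read 4019 in Pdpn KO replicate 2 and 3404 in WT replicate 2, against 1905 in Pdpn KO replicate 1 and 1515 in WT replicate 1. In both genes the genotypes lay close together and replicate 2 was over 2 times replicate 1. Chac1, which degrades glutathione, read 1166 in Pdpn KO replicate 2 and 961 in WT replicate 2, against 598 in Pdpn KO replicate 1 and 630 in WT replicate 1. Pck2, the mitochondrial PEP carboxykinase, the glycine transporter Slc6a9, Cth, the last enzyme of the route to cysteine, Mthfd2, Stc2, Atf5 and Adm2 rose by 0.44 to 0.78.

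The serine synthesis genes Phgdh and Psat1, the asparagine synthetase Asns and the ATF4 antagonist Trib3 were higher in both pairs but did not pass, with mean differences of 0.30 to 0.42 and limma adjusted p of 0.0601 to 0.0814. The cystine transporter Slc7a11 differed by 1.07 in the Pdpn KO pair and 0.22 in the WT pair. Ddit3, which encodes CHOP, differed by 0.01 on average. Lars, Iars, Eprs and Mars1, which charge transfer RNAs, lay between -0.03 and 0.10. 

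Promoters are shown for the 3 of the 10 risen genes whose window holds a composite C/EBP-ATF element, the site through which ATF4 is known to act. The motif searched was TGATGNAA, or TTNCATCA on the other strand, with matches allowed to overlap, in RefSeq windows of 250 bases before to 50 bases after the start (GRCm38.p6). It is in 3.97% of 32851 such windows and in 11 of 36 windows (30.6%) of the 31 listed genes that have one; 8 of the 10 risen genes have a window. The motif is in 3 of those 8 genes and in 7 of 22 measured genes of the list that did not pass, Iars and Gars among them. Capitals mark the match, which is a description of letters and not a measured site. The windows are chr7:126625421-126625720 on the minus strand for Nupr1, chr2:119350992-119351291 on the plus strand for Chac1 and chr14:55540016-55540315 on the plus strand for Pck2.
Nupr1: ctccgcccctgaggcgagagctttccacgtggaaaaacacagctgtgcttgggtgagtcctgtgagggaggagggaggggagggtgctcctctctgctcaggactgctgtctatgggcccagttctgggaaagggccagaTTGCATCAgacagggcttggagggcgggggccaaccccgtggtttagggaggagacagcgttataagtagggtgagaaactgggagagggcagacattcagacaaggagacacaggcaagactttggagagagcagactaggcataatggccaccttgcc
Chac1: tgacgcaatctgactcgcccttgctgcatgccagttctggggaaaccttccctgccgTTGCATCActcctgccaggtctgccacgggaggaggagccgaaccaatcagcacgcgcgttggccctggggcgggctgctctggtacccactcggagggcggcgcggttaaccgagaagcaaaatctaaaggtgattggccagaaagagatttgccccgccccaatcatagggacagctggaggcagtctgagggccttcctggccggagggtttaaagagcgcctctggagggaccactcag
Pck2: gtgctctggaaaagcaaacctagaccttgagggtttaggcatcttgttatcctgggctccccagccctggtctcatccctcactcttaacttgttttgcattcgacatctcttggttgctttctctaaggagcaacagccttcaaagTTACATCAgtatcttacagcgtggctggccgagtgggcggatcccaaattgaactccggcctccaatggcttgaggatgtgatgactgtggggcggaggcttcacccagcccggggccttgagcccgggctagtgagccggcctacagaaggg

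Among signalling genes, ligands and their receptors moved singly. Of 28 TGF-beta and BMP ligands, receptors and antagonists, Bmp4 rose, as above, and Bmp2 fell, with 125 in Pdpn KO replicate 2 and 139 in WT replicate 2, against 208 in Pdpn KO replicate 1 and 202 in WT replicate 1. The list median was -0.03 in the Pdpn KO pair and 0.08 in the WT pair. None of 18 SMAD feedback and Id genes passed, with a median of -0.03. Of 27 FGF and PDGF pathway genes, Pdgfrb and its ligand gene Pdgfb rose by 0.63 and 0.55, Spry2, a feedback inhibitor of receptor tyrosine kinases, fell by 0.58, and the median was -0.07 in the Pdpn KO pair and 0.08 in the WT pair. Of 18 genes of the IGF axis, the binding protein gene Igfbp2 rose by 0.98, while the receptor genes Insr, Igf2r and Igf1r were at least 0.25 lower in both pairs and did not pass (limma adjusted p = 0.0588, 0.0672 and 0.0902). The list median was -0.10 in the Pdpn KO pair and 0.01 in the WT pair.

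Of 23 Notch and Eph genes, Epha3 and Hey2 rose and Epha7 fell, and the median was 0.13. Hey2, a repressor induced by Notch, read 335 in Pdpn KO replicate 2 and 236 in WT replicate 2, against 160 in Pdpn KO replicate 1 and 159 in WT replicate 1. Its relatives Hey1 and Heyl differed by 0.70 and 0.39 with limma adjusted p of 0.0544 and 0.0552. None of 41 Wnt pathway genes passed, 6 were at least 0.25 higher and 2 lower in both pairs, and the secreted antagonist genes Sfrp1 and Dkk2 differed by 0.68 and -0.79 (limma adjusted p = 0.0583 and 0.0703). The 6 and the 2 are 14.6% and 4.88% of the list, against 5.06% and 5.14% of all genes. The share that was lower thus lies near the background. None of 16 Hedgehog pathway genes passed. The medians of these 2 lists were 0.13 and 0.06. Of 20 YAP and TAZ targets, Ankrd1, a nuclear protein of strained muscle and fibroblasts, fell by 0.49 and 0 rose, with a median of -0.13, which became -0.05 when WT replicate 1 was left out and -0.21 when Pdpn KO replicate 1 was.

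Of 24 immediate-early genes, which serum and stress induce within minutes, 1 rose and 3 fell. Nr4a1, an orphan nuclear receptor, read 1143 in Pdpn KO replicate 2 and 1216 in WT replicate 2, against 2239 in Pdpn KO replicate 1 and 2303 in WT replicate 1, a difference of -0.95 ± 0.08 (SE, limma adjusted p = 0.00732). Its relative Nr4a2 fell by 0.64 and Klf4 by 0.46, while Egr2 rose by 0.92. The other 20 genes did not pass, Fos among them at 0.22, and the median was -0.06. The clock genes Bhlhe41, Ciart and Per1 fell by 1.45, 1.06 and 0.53. These were the 3 called of 19 clock genes, a list also put together after the values had been seen, whose median was -0.09.

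Of 35 chemokine and cytokine genes, Ccl19, Ccl7, Cxcl14 and Cxcl5 rose, Kitl fell, and 11 were at least 0.25 higher and 3 lower in both pairs. The 11 and the 3 are 31.4% and 8.57% of the list, against 5.06% and 5.14% of all genes. Ccl19, a ligand of CCR7 on T cells and dendritic cells, read 1634 in Pdpn KO replicate 2 and 1787 in WT replicate 2, against 913 in Pdpn KO replicate 1 and 1019 in WT replicate 1. Its difference was 0.83 ± 0.08 (SE, limma adjusted p = 0.00981). Cxcl5, which draws neutrophils, read 648 in Pdpn KO replicate 2 and 174 in WT replicate 2, against 173 in Pdpn KO replicate 1 and 98.7 in WT replicate 1. Kitl, the ligand of KIT, read 758 in Pdpn KO replicate 2 and 1024 in WT replicate 2, against 1259 in Pdpn KO replicate 1 and 1630 in WT replicate 1. The list median of 0.13 became 0.04 after quantile normalization. Of 25 interferon-stimulated genes, Ifit3 fell by 0.66 and 0 rose; the list median was -0.10 in the Pdpn KO pair and 0.14 in the WT pair, and the 0.05 of both pairs became -0.05 after quantile normalization.

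Cell cycle genes held no call, which lies near the 0.742% and 1.56% of all genes called higher and lower. None of 32 DNA replication and S phase genes passed, and their median was 0.31 in the Pdpn KO pair and -0.07 in the WT pair. Mcm3, a subunit of the replicative helicase, read 1139 in Pdpn KO replicate 2 and 780 in WT replicate 2, against 771 in Pdpn KO replicate 1 and 747 in WT replicate 1. None of 33 mitosis genes and none of 20 G1 cyclins and CDK inhibitors passed. The medians were 0.08 in the Pdpn KO pair and -0.09 in the WT pair for mitosis, and 0.01 in the Pdpn KO pair and -0.04 in the WT pair for the G1 genes. Of 16 p53 targets, Perp, a desmosome and cell death protein, fell by 0.78, Mdm2 differed by -0.34 without passing (limma adjusted p = 0.0765), and the median was -0.12.

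Hox genes differed by value in the Pdpn KO pair. The 16 anterior Hox genes had a median of -0.77 in the Pdpn KO pair and -0.01 in the WT pair, with 0 called. Hoxa5 read 604 in Pdpn KO replicate 2 and 1187 in WT replicate 2, against 1314 in Pdpn KO replicate 1 and 1181 in WT replicate 1. Pdpn KO replicate 2, the array with the female pattern, stood apart from the other 3 arrays for this gene. The 18 posterior Hox genes had a median of 0.27 in the Pdpn KO pair and 0.06 in the WT pair, with 0 called, and 0.19 for both pairs after quantile normalization. Without Pdpn KO replicate 2, and so with no genotype covariate, the medians were -0.11 for the anterior and -0.05 for the posterior genes. These values hold genotype differences too, unlike the -0.01 and 0.06 of the WT pair. Of 40 patterning factors active in the limb, the face or the body wall, Eya1 fell by 0.53 and 0 rose, and Pitx1, a hindlimb factor, read 564 in Pdpn KO replicate 2 and 333 in WT replicate 2, against 255 in Pdpn KO replicate 1 and 276 in WT replicate 1. The median of the 40 was 0.00.

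**Figure D5:**
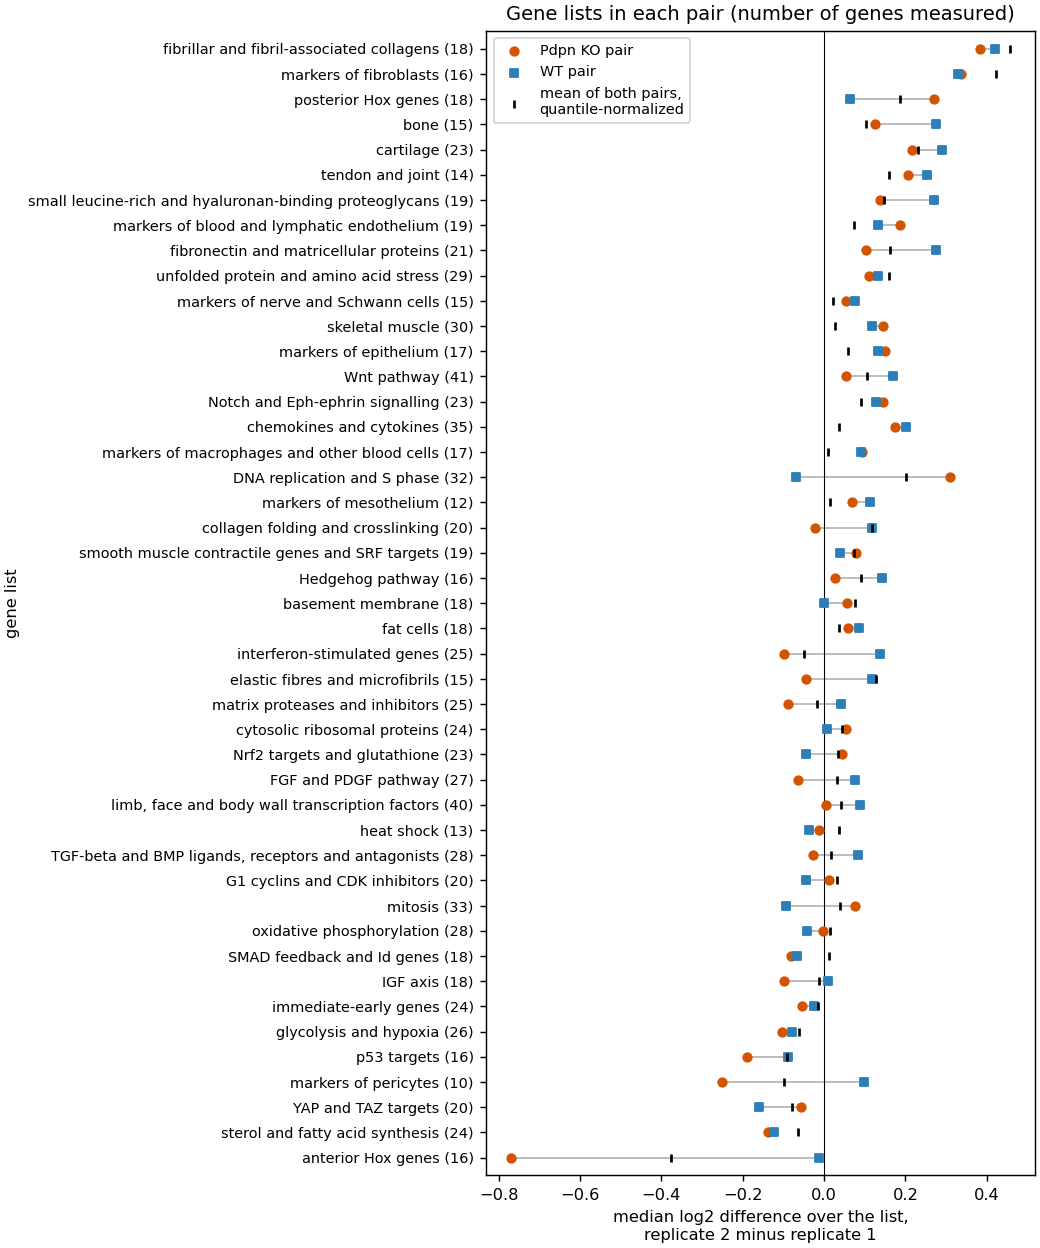
Median difference in log2 intensity, replicate 2 minus replicate 1, over the measured genes of each of 45 lists, in the Pdpn KO pair (circles), in the WT pair (squares) and, after quantile normalization, in the mean of both pairs (bars). Collagens lie at 0.38 in the Pdpn KO pair and 0.42 in the WT pair, and fibroblast markers at 0.34 and 0.33. The anterior Hox genes lie at -0.77 in the Pdpn KO pair and -0.01 in the WT pair.

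Metabolic and housekeeping lists held few calls, as did all genes, with 0.742% called higher and 1.56% called lower. Of 26 glycolysis and hypoxia genes, Egln3, a HIF prolyl hydroxylase, fell by 0.54 and 0 rose, and Vegfa differed by 0.42 without passing (limma adjusted p = 0.0505), with a median of -0.07. None of 24 sterol and fatty acid synthesis genes passed, and their median was -0.13, with -0.14 in the Pdpn KO pair and -0.12 in the WT pair and -0.06 after quantile normalization. None of 23 Nrf2 and glutathione genes, 24 cytosolic ribosomal protein genes, 28 oxidative phosphorylation genes and 13 heat shock genes passed, and their medians lay between -0.02 and 0.03. That of the Nrf2 list was 0.04 in the Pdpn KO pair and -0.05 in the WT pair.

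Lysosomal genes held 6 that fell, which is 14.6% of those measured, against 1.56% of all genes. A list of 49 lysosome genes, put together after Gpnmb and Cd68 had been seen among the calls, had 41 measured, of which 6 fell and 0 rose, with 11 at least 0.25 lower and 1 higher in both pairs. Its median was -0.23, with -0.28 in the Pdpn KO pair and -0.16 in the WT pair, and -0.19 after quantile normalization. Gpnmb and Cd68 are in this list and among the 6 that fell, so its count is a description. Dpp7, a lysosomal dipeptidase, read 1145 in Pdpn KO replicate 2 and 1076 in WT replicate 2, against 1878 in Pdpn KO replicate 1 and 1790 in WT replicate 1. Glb1, the lysosomal beta-galactosidase, fell by 0.44. Tpp1, a lysosomal peptidase, differed by -0.49 and did not pass (limma adjusted p = 0.0528), and Ctsc, another one, was higher by 0.45 without passing (limma adjusted p = 0.059).

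Among genes of very long transcripts 21 fell, which is 32.8% of those measured, against 1.56% of all genes. In a list of 68 genes of known giant proteins, put together after values had been seen, 64 were measured, 21 fell and 0 rose, and the median was -0.38 (-0.35 in the Pdpn KO pair, -0.37 in the WT pair) and -0.29 after quantile normalization. Plec, which encodes the cytoskeletal linker plectin, read 1500 in Pdpn KO replicate 2 and 1868 in WT replicate 2, against 2346 in Pdpn KO replicate 1 and 2793 in WT replicate 1. Lrp1, Dync1h1, Dst and Prkdc also fell, with differences of -0.58, -0.57, -0.54 and -0.66. Hspg2 and Vcan, named above with the matrix genes, also have long messages. Transcript length, RNA quality and their part in the calls were not tested, and the count of this list is a description.

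Genes of microRNAs were called in 1 direction. Of 255 measured, 20 fell and 0 rose, and 35 were at least 0.25 lower and 18 higher in both pairs. The 20 are 7.84% of the list, against 1.56% of all genes tested. The 35 and the 18 are 13.7% and 7.06%, against 5.14% and 5.06% of all genes, so the share that was higher lies near the background. The 20 genes fall outside the naming rule and were chosen after their values had been seen. Probes for such a gene read its hairpin or the primary transcript around it, not the mature microRNA. Most of these genes are dim, with a median intensity of 109 over the list, and their median difference was 0.01 and -0.08 after quantile normalization. The mature sequences below are from RefSeq (GRCm38.p6), with the seed, bases 2 to 8, in capitals. RefSeq has 38 mature sequences for the 20 genes, with 36 different seeds. Mir29a and Mir29b-1 are shown because they share a seed and belong to a family known to repress collagen messages.
miR-29a-3p: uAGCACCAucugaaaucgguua
miR-29b-3p: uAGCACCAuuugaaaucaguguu

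Mir29a read 84.5 in Pdpn KO replicate 2 and 67.8 in WT replicate 2, against 157 in Pdpn KO replicate 1 and 145 in WT replicate 1, with differences of -0.90 in the Pdpn KO pair and -1.10 in the WT pair (limma adjusted p = 0.00741). Mir29b-1 read 14.5 in Pdpn KO replicate 2 and 20.9 in WT replicate 2, against 19.99 in Pdpn KO replicate 1 and 41.5 in WT replicate 1, so its groups overlapped, and it fell by 0.72 (limma adjusted p = 0.0469). The collagens described above moved the other way; no link between the 2 was tested.

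Of the 20 genes, 8 lie between Dlk1 and Dio3 on chromosome 12, a region of imprinted genes whose microRNAs come from long noncoding RNAs of the maternal chromosome. Of the 40 microRNA genes measured there, 8 fell and 0 rose, 12 were at least 0.25 lower and 0 higher in both pairs, and the median was -0.38, with -0.54 in the Pdpn KO pair and -0.18 in the WT pair, -0.16 without Pdpn KO replicate 2 and -0.40 after quantile normalization. Of the other 215 microRNA genes, 12 fell and 0 rose, and the median of 0.04 turned to -0.04 after quantile normalization. The sequences from the region are shown for Mir379 and Mir411, whose 3′ arms share a seed, and for Mir376a and Mir495, which had differences of over 1 on the log2 scale.
miR-379-3p: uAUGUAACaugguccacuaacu
miR-411-3p: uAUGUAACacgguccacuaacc
miR-376a-3p: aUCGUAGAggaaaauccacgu
miR-495-3p: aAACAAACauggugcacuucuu

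Mir411 read 71.0 in Pdpn KO replicate 2 and 104 in WT replicate 2, against 153 in Pdpn KO replicate 1 and 212 in WT replicate 1, a difference of -1.07 ± 0.08 (SE, limma adjusted p = 0.00505). Mir379 read 22.6 in Pdpn KO replicate 2 and 40.5 in WT replicate 2, against 67.5 in Pdpn KO replicate 1 and 67.1 in WT replicate 1. Mir376a and Mir495 fell too, with differences of -1.24 and -1.23. In all 4 genes Pdpn KO replicate 2 was the lowest array. Meg3, the long noncoding RNA at the start of the region, differed by -0.70 in the Pdpn KO pair and -0.21 in the WT pair and did not pass (limma adjusted p = 0.0811).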

How the data were processed

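The deposited table holds the authors' RMA output (method per the submitters' processing notes, version not stated there) as linear intensity for 24679 probe sets of 1-colour arrays. RMA corrects background, normalizes arrays and leaves no detection calls. The upper quartile over probe sets was 995 in Pdpn KO replicate 2 and 966 in WT replicate 2, against 1059 in Pdpn KO replicate 1 and 1027 in WT replicate 1, so the 4 distributions were not identical. Probe background means that fold changes of dim genes are understated, and the number of arrays limits the precision. The platform annotation gave 1 gene symbol to 21354 probe sets, several symbols to 1275 and did not list 2050, and 21277 matched RefSeq genes of GRCm38.p6, a table used here for names, gene kinds, chromosomes, neighbours and sequences; the files name no build. The brightest probe set was kept for 893 symbols with several. Log2 was taken of the deposited values and fitted with limma 3.58.1 (R 4.3.3) on genotype and replicate number. The fit had 1 residual degree of freedom, with eBayes and Benjamini-Hochberg adjustment over 19007 genes. It was also run on simulated data with spreads drawn from limma's own prior, independent noise and no brightness trend. That check cannot tell how the calls fare where these assumptions fail. The median SE was 0.082. Each gene or list has 2 arrays a side.

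The genes described, the 45 lists and the tests were chosen with earlier results of these data known, so no list is independent evidence. The text names, per direction, 15 genes with a functional name and the smallest p, and from each list members with the smallest p and some of the brightest; all other names were chosen after their values were seen. Alternatives were another value table, 3 normalizations (cyclic loess was added after the data were seen), filters, a pseudocount of 50, other priors, probe set averaging, X and Y genes kept, no covariate, each array left out and other thresholds.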

Additional observations from a re-analysis of the deposited data

Results flagged for a closer look

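In 12 of the 45 lists the median difference had opposite signs in the Pdpn KO pair and in the WT pair. The difference between the pairs was not tested, each pair having 1 array a side. Pdpn KO replicate 2 is the only array with a female pattern, which matches its label. As Pdpn KO pair minus WT pair, on the log2 scale, the gap was 0.38 for DNA replication and S phase genes, 0.17 for mitosis genes, 0.0895 for Nrf2 and glutathione genes and 0.0562 for G1 cyclins and CDK inhibitors. It was -0.35 for pericyte markers, -0.23 for interferon-stimulated genes, -0.16 for elastic fibres, -0.14 for collagen folding enzymes, -0.14 for FGF and PDGF genes, -0.13 for matrix proteases, -0.11 for TGF-beta and BMP genes and -0.11 for the IGF axis.

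Sex-linked genes lay outside the fit and showed a difference in the Pdpn KO pair that the WT pair lacked. Xist was 5.23 higher in Pdpn KO replicate 2 than in Pdpn KO replicate 1 on the log2 scale, and 0.24 higher in the WT pair. The Y-linked genes Eif2s3y, Uty and Kdm5d differed by -5.58, -4.47 and -2.53 in the Pdpn KO pair, and by -0.06, -0.01 and -0.24 in the WT pair.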

How the results depend on the processing

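No paired analysis was possible because the replicate number, which would pair arrays across genotypes, is the factor compared; the genotype covariate sets replicate 2 against replicate 1 within each genotype. The counts of genes called higher and lower were 214 and 516 after cyclic loess normalization, 30 and 76 without the dimmer 25% of genes, 24 and 51 without the dimmer 50%, 27 and 41 with a pseudocount of 50, and 285 and 504 with an intensity-dependent robust prior. They were 4 and 8 with no genotype covariate, 0 and 0 when each gene's own variance was used with no prior (1133 and 848 at an unadjusted p under 0.05), 17 and 26 at an adjusted p under 0.01, and 1618 and 1451 at one under 0.10. Leaving out 1 array gave 0 to 29 genes called higher and 0 to 37 called lower. The cause was not tested; the fits with 1 array left out have fewer samples and no covariate. With the other deposited table, median centring, quantile normalization, averaged probe sets or X and Y genes kept, both counts stayed within 1.5 times. After quantile normalization 328 genes were called again, which is 75.1% of those called before and 63.7% of the 515 called there. The 1938 genes that differed the same way in both pairs were 214 with a minimum of 0.5 and 14029 with no minimum. Leaving out 1 array, with no covariate, also moved list medians by over 1.5 times. Without WT replicate 1 the median became 0.06 for Wnt genes, 0.10 for unfolded protein and amino acid stress and 0.06 for nerve markers. Without Pdpn KO replicate 1 it became 0.22 for Wnt genes, 0.32 for tendon and joint genes, 0.09 for endothelial markers and 0.42 for posterior Hox genes. Without WT replicate 2 it became 0.14 for bone genes, -0.19 for p53 targets, 0.29 for S phase genes, -0.72 for anterior and 0.52 for posterior Hox genes and -0.21 for pericyte markers. Without Pdpn KO replicate 2 it became -0.03 for S phase genes, 0.01 for nerve markers and 0.02 for pericyte markers. Lists with medians under 0.1 in size moved more in proportion, and the collagen median stayed between 0.40 and 0.44. Genes named without a call changed sign in a few fits. Eprs differed by 0.016 after quantile normalization and 0.028 after cyclic loess. With 1 array left out, the differences spanned -0.068 to 0.391 for Col2a1, -0.015 to 0.034 for Ddit3, -0.262 to 0.0642 for Dlk1, -0.0791 to 0.0158 for Eprs and -0.0542 to 0.105 for Mars1. With 4 arrays of 1 normalization, differences of dim genes are limited by background, and no probe set has a detection call.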

Other observations

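Some calls outside the lists were of imprinted genes or of genes of the placenta. They were picked by hand after their values had been seen, and no list of such genes was tallied. The imprinted Peg3, a zinc finger gene, read 654 in Pdpn KO replicate 2 and 674 in WT replicate 2, against 1369 in Pdpn KO replicate 1 and 1140 in WT replicate 1, and fell by 0.91 on the log2 scale (limma adjusted p = 0.0153). The imprinted Nnat and Zdbf2 also fell, with differences of -0.60 and -0.59, while the imprinted Igf2, Dlk1 and Cdkn1c differed by 0.24, -0.10 and -0.12 without passing. The placental prolactin family genes Prl8a9 and Prl3d3 both fell by 0.85. The paired somite homeobox genes Meox1 and Meox2 both rose by 0.57. Meox1 read 211 in Pdpn KO replicate 2 and 197 in WT replicate 2, against 127 in Pdpn KO replicate 1 and 148 in WT replicate 1. Creb3l1, a transcription factor known to drive the type I collagen genes in bone, read 3425 in Pdpn KO replicate 2 and 3481 in WT replicate 2, against 2209 in Pdpn KO replicate 1 and 2218 in WT replicate 1.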
